A study of Mus musculus with 4 samples.

Results

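Proteasome genes were described in spleen RNA of KLHL3 knock-in (KLHL3-KI) mice, 2 libraries, and of wild-type (WT) mice, 2 libraries, with C57BL/6J as the strain and baseline as the treatment of both groups. Members were all genes of the deposited table whose mouse symbol starts with Psm, a letter from a to g and a digit, leaving out pseudogene names. This gave 50 of 23763 genes. The sources used here state no knock-in allele, age or sex, and nothing says that the libraries come from separate animals, so p-values measure only the spread between these libraries. Values are scaled read counts, that is, read counts divided by 1 factor per library. Log2 fold changes, KLHL3-KI over WT with their standard error (SE), were taken on the log2(value + 1) scale.

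The proteasome degrades ubiquitin-tagged proteins in the cytosol and nucleus. Its 20S core is a barrel of alpha and beta subunits with the catalytic sites inside, and its 19S regulatory particle binds, unfolds and feeds in the substrate. Lymphocytes and other blood cells carry an alternative set of catalytic beta subunits, the immunoproteasome, which interferon gamma induces and which shapes the peptides shown on MHC class I molecules. The spleen holds many lymphocytes, beside the red pulp where old red cells are removed and, in mice, new ones can be made.

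The 50 members were sorted by role. They comprised 14 constitutive 20S core subunits (7 of the alpha ring, and 4 structural and 3 catalytic ones of the beta ring), 3 immunoproteasome subunits and 17 subunits of the 19S particle. The others were 7 assembly chaperones, 6 activators or inhibitors, 2 tissue-restricted core subunits (Psma8 and Psmb11) and Psmc3ip, a meiotic recombination factor named for its binding to Psmc3. A minimum mean value of 1 over the libraries was passed by 49 members. Psmb11, the thymus-specific catalytic subunit, did not pass it, at 0.110 and 0 in KLHL3-KI and 0.112 and 0.208 in WT. The libraries held 9586677 and 10933023 reads in KLHL3-KI and 8535483 and 8975415 reads in WT. Klhl3 itself was at 2.53 and 1.36 in KLHL3-KI and 3.02 and 4.67 in WT, which does not show the knock-in allele.

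Upstream sequences are shown for 2 of the 3 pairs of catalytic partners. In each pair the constitutive gene had a positive and the immunoproteasome gene a negative log2 fold change. This also held for the pair not shown, Psmb7 and Psmb10. The 250 bases before the RefSeq transcription start (build GRCm38.p6) are printed 5′ to 3′ on the strand of the gene, and capitals mark matches to the motifs searched on either strand.
Psmb5 (chr14:54617996-54618245, minus strand): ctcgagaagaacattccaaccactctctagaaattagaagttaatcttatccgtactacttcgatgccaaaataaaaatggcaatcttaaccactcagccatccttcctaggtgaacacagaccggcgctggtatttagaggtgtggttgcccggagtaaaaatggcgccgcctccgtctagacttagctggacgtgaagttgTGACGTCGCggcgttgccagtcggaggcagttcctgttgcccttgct
Psmb8 (chr17:34197945-34198194, plus strand): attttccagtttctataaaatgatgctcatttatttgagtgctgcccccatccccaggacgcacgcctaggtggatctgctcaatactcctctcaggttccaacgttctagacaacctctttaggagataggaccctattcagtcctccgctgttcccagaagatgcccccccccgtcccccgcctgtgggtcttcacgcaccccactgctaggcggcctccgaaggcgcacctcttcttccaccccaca
Psmb6 (chr11:70525107-70525356, plus strand): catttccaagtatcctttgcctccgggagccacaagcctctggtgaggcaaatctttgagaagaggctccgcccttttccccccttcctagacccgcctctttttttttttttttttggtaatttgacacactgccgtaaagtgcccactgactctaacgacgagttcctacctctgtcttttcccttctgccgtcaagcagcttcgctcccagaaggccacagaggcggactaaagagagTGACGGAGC
Psmb9 (chr17:34187331-34187580, minus strand): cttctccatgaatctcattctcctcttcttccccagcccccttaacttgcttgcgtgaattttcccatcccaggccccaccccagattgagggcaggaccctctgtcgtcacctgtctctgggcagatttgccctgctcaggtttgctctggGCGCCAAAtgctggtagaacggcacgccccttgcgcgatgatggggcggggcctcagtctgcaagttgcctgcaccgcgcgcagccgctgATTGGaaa
The capitals are an antioxidant response element core (TGACNNNGC) in Psmb5 and in Psmb6, and in Psmb9 an E2F site (TTTGGCGC, here on the other strand) followed by a CCAAT box (CCAAT, here on the other strand), which do not overlap. None of the letters searched was found in the window of Psmb8.

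The proteasome genes split by role in KLHL3-KI spleen: 7 of 14 genes of the constitutive core and 14 of 17 of the 19S particle were called higher, while 2 of 3 of the immunoproteasome were called lower. Psmd7 of the 19S lid was at 58.3 ± 4.58 in KLHL3-KI and 33.6 ± 4.37 in WT (mean ± SD, n = 2 each). Psmb8 of the immunoproteasome was at 106 ± 2.24 in KLHL3-KI and 147 ± 9.99 in WT (n = 2 each). Among 49 tested members, limma called 28 higher and 3 lower at a Benjamini-Hochberg adjusted p under 0.05, and 18 were not called. Over all 16970 tested genes, 15.2% were called higher and 7.56% lower. Both KLHL3-KI values lay above both WT values for 42 tested members, against 32.8% of all tested genes, and all 31 subunits of the constitutive core and the 19S particle were among the 42. Both KLHL3-KI values lay below both WT values for 5 tested members, against 31.9% of all tested genes. The median log2 fold change was 0.41 over the tested members and -0.01 over all tested genes. In whole spleen RNA, fewer cells of a type and less RNA of a gene per cell cannot be told apart.

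**Figure D1:**
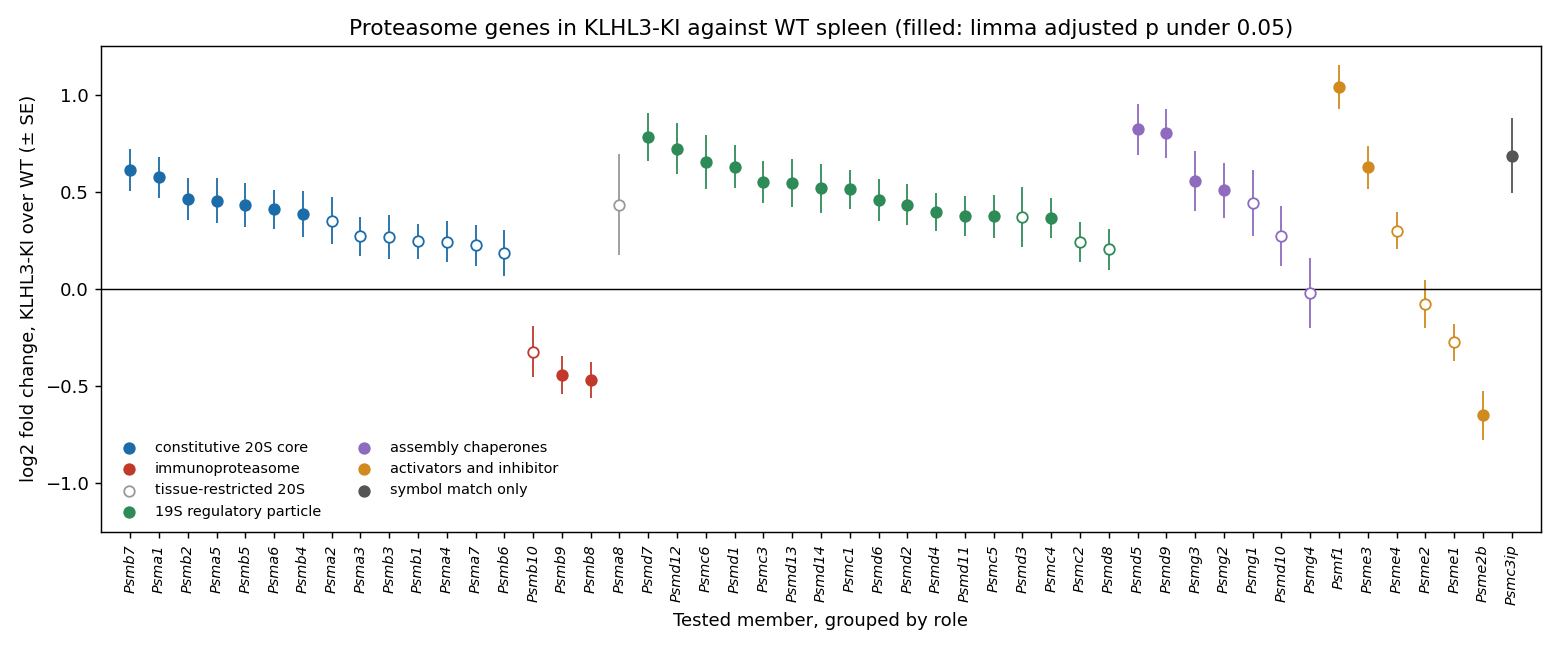
Log2 fold change of each tested member, KLHL3-KI over WT, with its SE (vertical lines), grouped and coloured by role, where filled points passed limma at an adjusted p under 0.05. The 31 core and 19S genes lie above 0, the 3 immunoproteasome genes lie below 0, and Psmf1 is highest at 1.04.

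Whole reads recovered from the table gave the same numbers of member calls with edgeR's quasi-likelihood test, 28 higher and 3 lower, where 14.9% of all tested genes were called higher and 7.98% lower. DESeq2 on the same reads called fewer members, 22 higher and 3 lower, with 6 core and 12 19S genes among the higher ones. Over all 15325 genes it tested, DESeq2 called 2023 higher and 793 lower. The scaling moved the balance between directions. With equal total reads per library, the median of all tested genes was -0.16, 11.3% of them were called higher and 18.4% lower, and 13 members were called higher and 5 lower. Leaving out a library leaves 1 library in its group, so effect sizes are given here. Without WT replicate 2, the medians of the core, the 19S particle and the immunoproteasome were 0.25, 0.39 and -0.49. The median of all tested genes was then -0.0009. Fewer members and fewer of all tested genes were called there, and the share of members called came near that of all genes. Members also lost calls without WT replicate 1 or KLHL3-KI replicate 2.

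Markers of other cell types moved beside these genes, and their part in the results was not tested. All 10 tested T cell markers and all 10 B cell markers had negative log2 fold changes, 9 of each list were called lower, and none of the 20 was at 0. Their medians were -0.76 and -0.67, set beside -0.44 for the immunoproteasome. The summed T cell marker value was 380.0 and 371 in KLHL3-KI and 677 and 584 in WT. The summed B cell marker value was 2629.6 and 1993 in KLHL3-KI and 3434 and 3585 in WT. All 10 erythroid precursor, all 10 dividing cell and all 10 neutrophil markers were called higher, with medians of 2.71, 2.27 and 3.76. The summed values of these lists were 6486 and 7361 in KLHL3-KI and 1694 and 1339 in WT for erythroid precursors, 4086 and 4906 in KLHL3-KI and 1018 and 872 in WT for dividing cells and 1439 and 1946 in KLHL3-KI and 153 and 69.0 in WT for neutrophils. Macrophage markers had 1 of 8 called higher, dendritic cell markers 2 of 6 called lower and plasma cell markers none of 6 called (1 higher and 1 lower at an unadjusted p under 0.05), with medians of 0.19, -0.20 and 0.02.

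Of the 14 constitutive core genes, 7 were called higher and 7 were not called. Over all 14 the log2 fold changes ran from 0.18 to 0.61 with a median of 0.37. Of all tested genes, 11.3% were called higher with equal total reads. With equal total reads 2 genes were called, and leaving out WT replicate 2 left 0 (6 at an unadjusted p under 0.05 by limma), leaving out KLHL3-KI replicate 2 left 3 and leaving out WT replicate 1 left 5.

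The alpha subunits form the outer rings and the gate of the barrel, and 3 of the 7 were called higher. Psma1 was at 93.6 and 97.6 in KLHL3-KI and 68.7 and 59.4 in WT, a log2 fold change of 0.57 (SE 0.11 and adjusted p = 0.00399 by limma, and 0.0604 without WT replicate 2). Psma5 was at 58.3 and 64.0 in KLHL3-KI and 48.1 and 40.9 in WT, a log2 fold change of 0.45 (SE 0.12 and adjusted p = 0.0207 by limma). Psma6 was also called higher, with a log2 fold change of 0.41. The smallest changes of the ring were in Psma7, at 64.1 and 67.2 in KLHL3-KI and 60.0 and 52.4 in WT, and in Psma4, at 66.8 and 71.4 in KLHL3-KI and 61.5 and 55.1 in WT. All KLHL3-KI values of Psma7 and Psma4 were above the WT values, yet neither gene passed (limma adjusted p = 0.167 and 0.129). Psma2 and Psma3 did not pass either, with log2 fold changes of 0.35 and 0.27. On leaving out WT replicate 2 the calls of Psma5 and Psma6 were lost (limma adjusted p = 0.178 and 0.104), as they were on leaving out KLHL3-KI replicate 2 (0.0757 and 0.0792). That of Psma6 was lost on leaving out WT replicate 1 too (0.0928), where Psma2 passed (0.0427). Psma5 shares 54.5% of the 50-base stretches of its longest coding transcript with other annotated genes, above all Gm8394, so reads could be split between them. The same limit holds for Psmb3 (55.8%, above all AC114990.1), Psmd2 (26.4%), Psma4 (25.6%), Psmg3 (22.7%) and Psma3 (22.0%). Several other members had smaller shares.

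Of the 4 structural beta subunits, Psmb2 and Psmb4 were called higher. Psmb2 was at 48.9 and 47.5 in KLHL3-KI and 36.5 and 33.1 in WT, a log2 fold change of 0.46 (SE 0.11 and adjusted p = 0.0138 by limma, and 0.125 without WT replicate 2). Psmb4 was at 86.9 and 99.9 in KLHL3-KI and 77.5 and 65.2 in WT, a log2 fold change of 0.39 (SE 0.12). Its limma adjusted p was 0.0428, and it rose above 0.05 when WT replicate 1 (0.0594), WT replicate 2 (0.292) or KLHL3-KI replicate 2 (0.180) was left out. Psmb1 and Psmb3 were not called: Psmb1 was at 113 and 118 in KLHL3-KI and 97.4 and 97.4 in WT, and Psmb3 at 67.7 and 73.5 in KLHL3-KI and 63.7 and 53.7 in WT. Neither overlapped between the groups (limma adjusted p = 0.0843 and 0.125).

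The catalytic subunits come in pairs, and in each pair the constitutive gene had a positive and the immunoproteasome gene a negative log2 fold change in KLHL3-KI spleen. Psmb5 carries the chymotrypsin-like site of the constitutive core and was at 53.0 and 61.4 in KLHL3-KI and 43.6 and 40.4 in WT. Psmb8 takes its place in the immunoproteasome and was at 107 and 104 in KLHL3-KI and 154 and 139.7 in WT. The groups did not overlap for either gene, and the direction was opposite: the log2 fold change was 0.43 for Psmb5 (SE 0.11 and adjusted p = 0.0229 by limma) and -0.47 for Psmb8 (SE 0.09 and adjusted p = 0.00652 by limma).
Psmb6 carries the caspase-like site and was at 48.9 and 51.8 in KLHL3-KI and 48.2 and 40.5 in WT, and it did not pass (a log2 fold change of 0.18 with an SE of 0.12 and a limma adjusted p of 0.294). Its counterpart Psmb9 was at 58.6 and 54.5 in KLHL3-KI and 79.5 and 75.0 in WT and fell (a log2 fold change of -0.44 with an SE of 0.10 and a limma adjusted p of 0.0110). Psmb7 carries the trypsin-like site and was at 77.2 and 88.2 in KLHL3-KI and 55.9 and 51.6 in WT, the largest rise in the constitutive core (a log2 fold change of 0.61 with an SE of 0.11 and a limma adjusted p of 0.00328). Its counterpart Psmb10 was at 49.8 and 43.8 in KLHL3-KI and 66.2 and 52.0 in WT, with both KLHL3-KI values under both WT values, and did not pass (a log2 fold change of -0.32 with an SE of 0.13 and a limma adjusted p of 0.115).
Without WT replicate 1 the limma adjusted p was 0.0723 for Psmb8, 0.0944 for Psmb9 and 0.0804 for Psmb5. Without WT replicate 2 it was 0.0352 for Psmb8 (still called), 0.0661 for Psmb9, 0.169 for Psmb5 and 0.0560 for Psmb7, and without KLHL3-KI replicate 2 the call of Psmb5 was lost (0.127). Psmb10 passed without KLHL3-KI replicate 1 (0.0460) and with equal total reads (0.0210), and without WT replicate 1 limma called 0 of the 3 immunoproteasome genes lower, 2 of them at an unadjusted p under 0.05. The call of Psmb5 was lost with equal total reads (limma adjusted p = 0.0944) and after quantile normalization (0.0916). It was also lost with globin, immunoglobulin and mitochondrial genes removed (0.0604). Psmb5 shares 57.1% of the 50-base stretches of its longest coding transcript with other annotated genes, above all Gm3375. The 3 immunoproteasome genes share 0% with any.

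**Figure D2:**
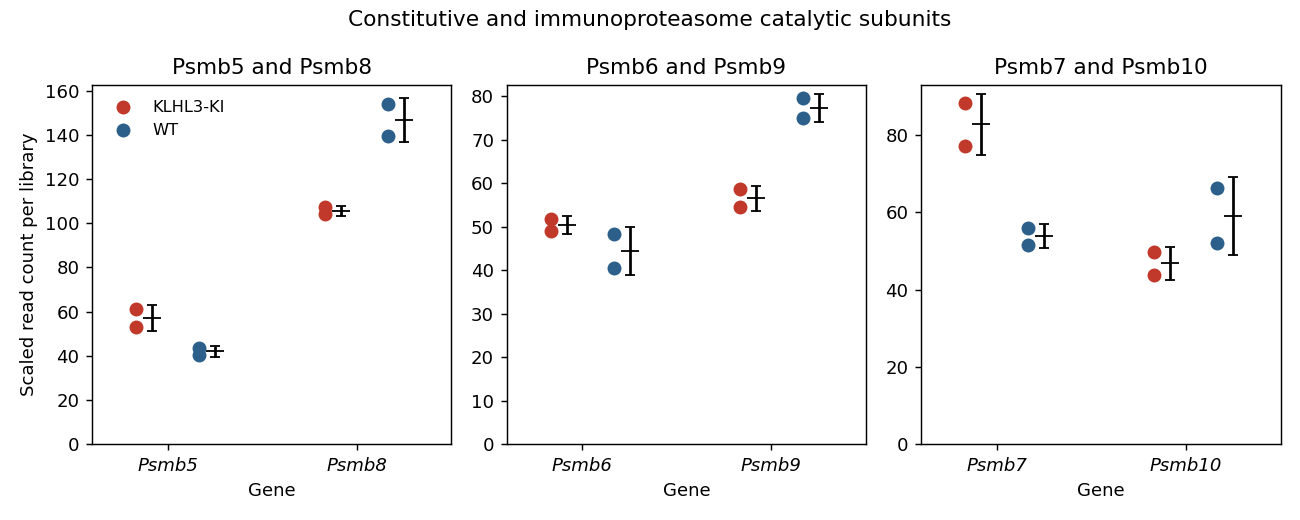
Scaled read count (linear axis from 0) of each constitutive catalytic subunit and its immunoproteasome counterpart in the KLHL3-KI and WT libraries (points), with mean and SD beside them (bars, n = 2). The KLHL3-KI points of Psmb5 and Psmb7 lie above the WT points, and those of Psmb8, Psmb9 and Psmb10 lie below them.

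The ratio of partners within a library does not depend on how libraries are scaled against each other, apart from the pseudocount. The log2 difference Psmb8 minus Psmb5 was 1.00 and 0.75 in KLHL3-KI and 1.79 and 1.77 in WT. Psmb9 minus Psmb6 was 0.26 and 0.07 in KLHL3-KI and 0.71 and 0.87 in WT. Psmb10 minus Psmb7 was -0.62 and -0.99 in KLHL3-KI and 0.24 and 0.01 in WT. In all 3 pairs both KLHL3-KI libraries were below both WT libraries. Since the values are not per length, these differences are set between libraries and do not rank the partners. The KLHL3-KI minus WT differences of these values were -0.90, -0.63 and -0.93, so that the immunoproteasome gene was 1.87-fold, 1.55-fold and 1.91-fold lower relative to its partner. An exact two-sided permutation test over the libraries gave p = 0.333 for each pair, also after Benjamini-Hochberg adjustment over the 3 pairs, and 0.333 is the smallest p that 2 against 2 libraries allow.

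**Figure D3:**
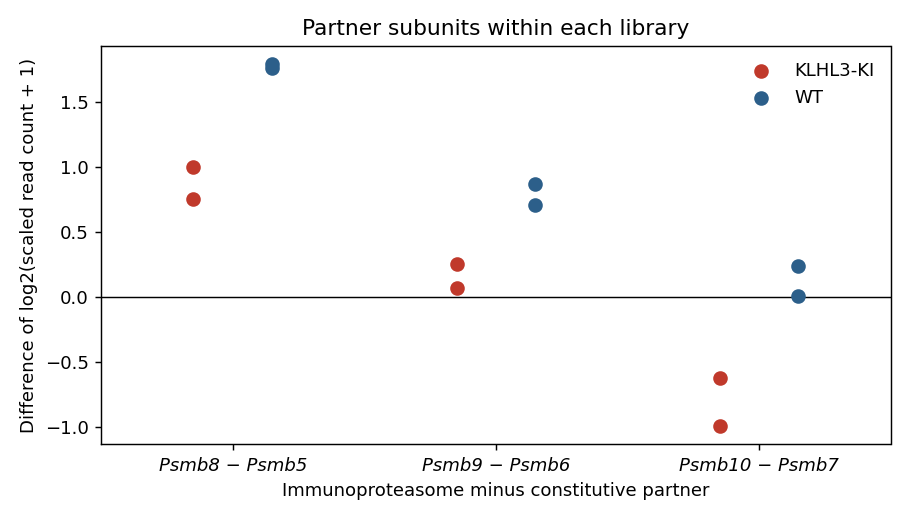
Difference of log2(scaled read count + 1) between each immunoproteasome gene and its constitutive partner within a library, with KLHL3-KI points left of WT points. In each of the 3 pairs both KLHL3-KI libraries lie below both WT libraries.

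Summed over the genes of a class, the same contrast was seen in the share of reads. This share scales each library by its total reads, as the setting of equal total reads does. The 14 constitutive core genes took 0.0961% and 0.102% in KLHL3-KI and 0.0904% and 0.0828% in WT of all reads of a library. The 17 genes of the 19S particle took 0.123% and 0.137% in KLHL3-KI and 0.110% and 0.101% in WT. The 3 immunoproteasome genes took 0.0204% and 0.0190% in KLHL3-KI and 0.0314% and 0.0286% in WT. The KLHL3-KI shares of the core and 19S classes were above both WT shares, and those of the immunoproteasome were below both. The summed value of the immunoproteasome genes divided by that of the constitutive catalytic genes was 1.20 and 1.01 in KLHL3-KI and 2.03 and 2.01 in WT. The summed value of the 19S genes divided by that of the core genes was 1.28 and 1.34 in KLHL3-KI and 1.22 and 1.22 in WT, a smaller separation.

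**Figure D4:**
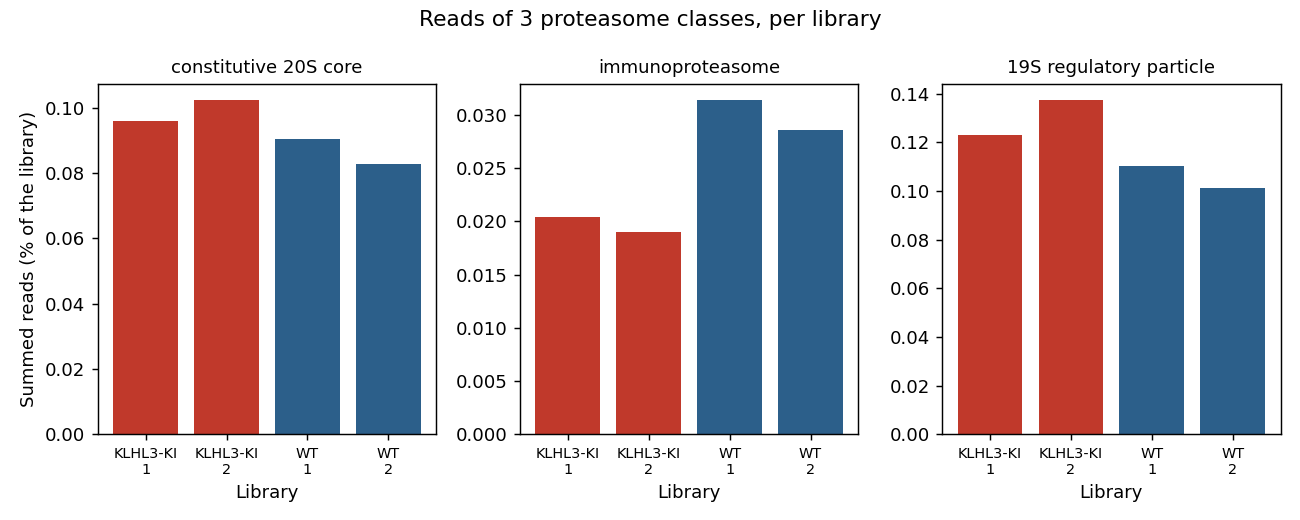
Reads of the constitutive core, immunoproteasome and 19S genes as percent of all reads of each library (bars from 0, with a separate axis for each class). The immunoproteasome share is 0.0204% and 0.0190% in the KLHL3-KI libraries against 0.0314% and 0.0286% in the WT libraries, while the shares of the other classes are higher in KLHL3-KI.

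The 19S particle had the larger number of called genes. Of its 17 genes limma called 14 higher and none lower, the log2 fold changes running from 0.20 to 0.78 around a median of 0.46. Of all tested genes, 15.2% were called higher, and 11.3% with equal total reads. Fewer of all tested genes were also called higher without WT replicate 2, KLHL3-KI replicate 2 or WT replicate 1. With equal total reads 7 genes were called, and leaving out WT replicate 2 left 1, leaving out KLHL3-KI replicate 2 left 7 and leaving out WT replicate 1 left 8.

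The base of the particle holds the ATPases that unfold the substrate, Psmc1 to Psmc6, and the large scaffold and ubiquitin-binding subunits Psmd1, Psmd2 and Psmd4. Of these 9 genes, 8 were called higher. Psmc6 was at 79.5 and 90.2 in KLHL3-KI and 61.5 and 46.4 in WT, a log2 fold change of 0.65 (SE 0.14 and adjusted p = 0.00846 by limma). Psmd1 was at 102 and 120.1 in KLHL3-KI and 73.4 and 68.8 in WT, a log2 fold change of 0.63 (SE 0.11 and adjusted p = 0.00289 by limma). Both groups were apart for these genes, and both calls were lost without WT replicate 2 (limma adjusted p = 0.0909 and 0.0531). At the other end Psmc4 was at 62.1 and 66.4 in KLHL3-KI and 50.9 and 48.5 in WT, a log2 fold change of 0.36. Psmc2 was at 102 and 108 in KLHL3-KI and 95.1 and 82.5 in WT and was the base gene that did not pass (log2 fold change 0.24, limma adjusted p = 0.129). The call of Psmc4 (limma adjusted p = 0.0287) was lost when WT replicate 1 (0.0976), WT replicate 2 (0.174) or KLHL3-KI replicate 2 (0.128) was left out. The other ATPases Psmc1, Psmc3 and Psmc5 rose by 0.51, 0.55 and 0.37 on the log2 scale, the scaffold Psmd2 by 0.43 and the ubiquitin receptor Psmd4 by 0.39. Each of these 5 calls was lost without WT replicate 2 (limma adjusted p from 0.0780 for Psmc1 to 0.239 for Psmc5), and those of Psmc5, Psmd2 and Psmd4 also when WT replicate 1 or KLHL3-KI replicate 2 was left out (0.0621 for Psmd2 to 0.123 for Psmc5).

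The lid removes the ubiquitin chain through the deubiquitinase Psmd14, and 6 of its 8 genes were called higher. Psmd7, the partner of Psmd14 in the deubiquitinating module, was at 55.1 and 61.5 in KLHL3-KI and 36.7 and 30.5 in WT, a log2 fold change of 0.78 (SE 0.12 and adjusted p = 0.00177 by limma). Psmd12 was at 50.1 and 60.8 in KLHL3-KI and 35.9 and 30.5 in WT, a log2 fold change of 0.72 (SE 0.13 and adjusted p = 0.00395 by limma, and 0.0658 without WT replicate 2). Psmd14 itself rose by 0.52 on the log2 scale (limma adjusted p = 0.0160), and Psmd6, Psmd11 and Psmd13 by 0.46, 0.38 and 0.54. These 4 calls were lost without WT replicate 2 (limma adjusted p from 0.130 for Psmd13 to 0.205 for Psmd11), those of Psmd6, Psmd11 and Psmd13 also without KLHL3-KI replicate 2 (up to 0.125 for Psmd11), and those of Psmd6 and Psmd11 also without WT replicate 1 (0.0546 and 0.0659). Psmd7 passed under all 17 alternatives tried, with adjusted p up to 0.0350. Psmd8 was at 70.7 and 79.4 in KLHL3-KI and 68.0 and 62.1 in WT, and Psmd3 at 51.9 and 73.9 in KLHL3-KI and 45.4 and 50.1 in WT. These were the lid genes not called, with limma adjusted p of 0.204 and 0.122, and the KLHL3-KI values of Psmd3 were far apart (SD 15.6, against 3.33 in WT). Psmd3 passed without KLHL3-KI replicate 1 (0.00158), which was the library with the lower value.

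Of 7 assembly chaperones, 4 were called higher and none lower, and Psmd5 and Psmd9 of the 19S base had the largest changes of this class. Psmd5 and Psmd9, which hold base subunits apart until assembly, were called higher under all 17 alternatives. Psmd5 was at 77.0 and 74.8 in KLHL3-KI and 48.6 and 37.3 in WT, a log2 fold change of 0.82 (SE 0.13 and adjusted p = 0.00181 by limma). Psmd9 was at 27.0 and 29.7 in KLHL3-KI and 16.0 and 15.7 in WT, a log2 fold change of 0.80 (SE 0.13 and adjusted p = 0.00173 by limma). The third base chaperone, Psmd10 (gankyrin), was at 17.3 and 17.6 in KLHL3-KI and 16.1 and 12.7 in WT and did not pass (limma adjusted p = 0.236). Of the 4 chaperones of the 20S core, Psmg2 and Psmg3 were called, with log2 fold changes of 0.51 and 0.55, and Psmg1 was not (0.44). Both of these calls were lost when any 1 library was left out, with limma adjusted p from 0.0638 to 0.177 for Psmg2 and from 0.0653 to 0.163 for Psmg3. Psmg4 was at 6.72 and 6.62 in KLHL3-KI and 7.50 and 6.12 in WT, where the groups overlapped (log2 fold change -0.02, limma adjusted p = 0.951).

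The activators and the inhibitor did not move together. Psmf1 (PI31), a protein that binds the core and inhibits it in vitro, had the largest change of all members. It was at 72.6 and 85.2 in KLHL3-KI and 39.0 and 36.6 in WT, a log2 fold change of 1.04 (SE 0.11 and adjusted p = 1.68e-04 by limma), and it passed under all 17 alternatives. Psme3, the nuclear activator PA28 gamma, was at 174 and 213 in KLHL3-KI and 124 and 125 in WT, a log2 fold change of 0.63 (SE 0.11 and adjusted p = 0.00319 by limma), and also passed under all 17, with adjusted p up to 0.0477. Psme4 (PA200), a large single-chain activator, was at 119 and 132 in KLHL3-KI and 103 and 99.95 in WT and did not pass (limma adjusted p = 0.0503). It passed without KLHL3-KI replicate 1 (0.0309).
The interferon-induced activator PA28 is made of Psme1 and Psme2. Psme1 was at 86.1 and 92.4 in KLHL3-KI and 112 and 105 in WT, with both KLHL3-KI values under both WT values, and did not pass (a log2 fold change of -0.28 with an SE of 0.10 and a limma adjusted p of 0.0672). Psme2 was at 76.0 and 74.3 in KLHL3-KI and 89.7 and 70.2 in WT, and its groups overlapped (log2 fold change -0.08, limma adjusted p = 0.691, with a positive value of 0.10 without WT replicate 1). Psme2b, a retrogene copy of Psme2, was at 30.2 and 24.8 in KLHL3-KI and 43.2 and 44.0 in WT and was called lower (a log2 fold change of -0.65 with an SE of 0.12 and a limma adjusted p of 0.00504, and 0.0661 without WT replicate 2). The values of Psme2 and Psme2b are uncertain, since 69.3% of the 50-base stretches of Psme2b and 59.3% of those of Psme2 occur in other annotated genes, each mostly in the other. With equal total reads Psme1 passed as lower (0.00670).

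Psmc3ip, a member by symbol and not by function, was at 6.28 and 5.65 in KLHL3-KI and 3.13 and 3.53 in WT and was called higher (a log2 fold change of 0.69 with an SE of 0.19 and a limma adjusted p of 0.0306). The call was lost when any 1 library was left out (0.0562 to 0.142). Psma8, the germ cell form of an alpha subunit, rested on 14 and 11 reads in KLHL3-KI and 6 and 7 reads in WT and did not pass (log2 fold change 0.43, limma adjusted p = 0.262).

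The size of the changes depended on the scaling, while the order of the 3 class medians stayed the same under all 17 alternatives. The medians of the core, the 19S particle and the immunoproteasome were 0.37, 0.46 and -0.44 as reported and 0.20, 0.29 and -0.61 with equal total reads. After quantile normalization, where the median of all tested genes was -0.10, they were 0.23, 0.30 and -0.59. Of 31 called members, 16 kept the call under all 4 scaling alternatives, among them Psmb7, Psmb8, Psmb9, Psmd7 and Psmf1. All 31 core and 19S genes had positive, and all 3 immunoproteasome genes negative, log2 fold changes under all 17 alternatives. Leaving out a library or changing the pseudocount could not turn these signs, since the groups did not overlap for any of these genes. The settings of the filter, the variance and the replicate block leave a member's log2 fold change as it was. Under those settings these signs and the order of the class medians were therefore fixed in advance. Median-ratio scaling, equal total reads and the removal of globin, immunoglobulin and mitochondrial genes apply 1 factor per library. Such a factor shifts all members by nearly the same amount, so these scalings could hardly change the order of the class medians.

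**Figure D5:**
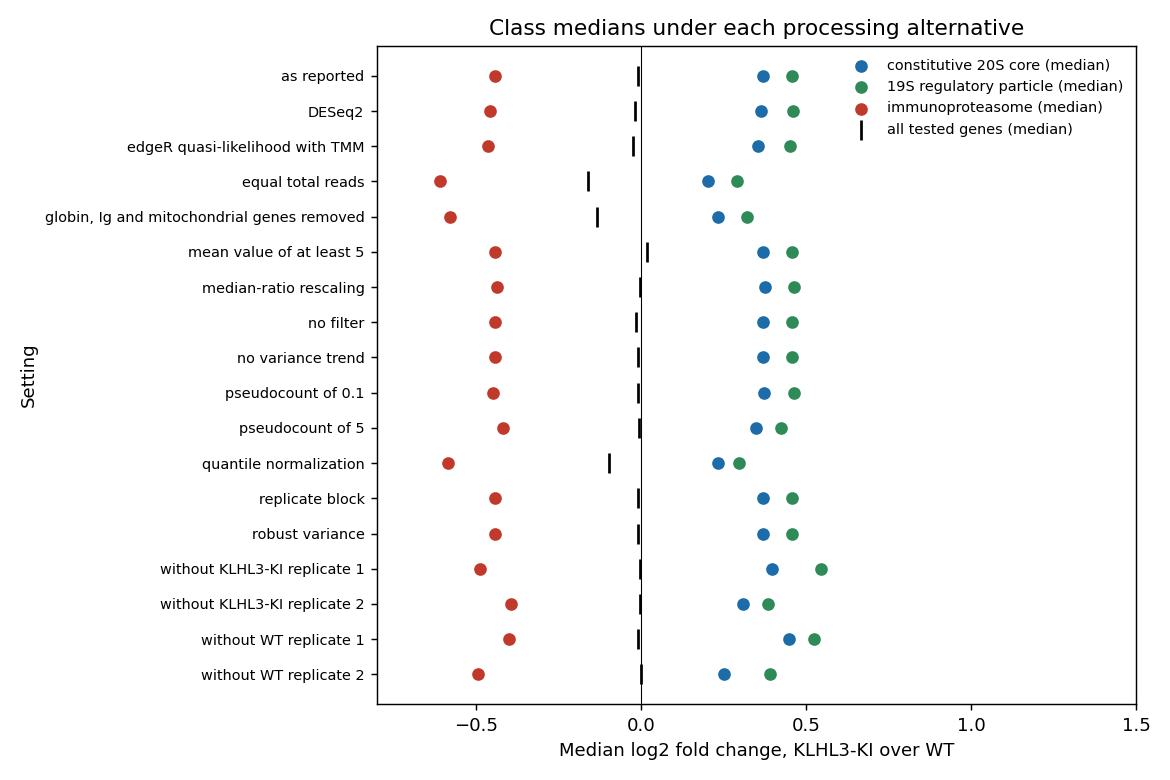
Median log2 fold change, KLHL3-KI over WT, of the constitutive core, the 19S particle and the immunoproteasome (points) and of all tested genes (bars), as reported and under each of 17 alternatives. The immunoproteasome median lies below that of all tested genes and the other 2 class medians lie above it under each of these settings.

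Other genes of the pathway were read from lists of functional partners. Of 18 tested partners of the proteasome outside the symbol rule, 5 were called higher and none lower (also 0 lower at an unadjusted p under 0.05 and with edgeR or DESeq2), with a median of 0.24. The proteasome-bound deubiquitinases Usp14 and Uchl5 rose by 0.78 and 0.82 on the log2 scale, and the 19S-bound thioredoxin-like protein Txnl1 rose by 0.89. Usp14 and Txnl1 passed under all 17 alternatives, and the call of Uchl5 was lost without WT replicate 2 (limma adjusted p = 0.0584). Of 11 regulators and p97 (Vcp) system genes, 3 were called higher and none lower (1 lower at an unadjusted p under 0.05, and 0 with edgeR or DESeq2). With equal total reads the balance of this list turned round, to 1 higher and 3 lower (Nfe2l1, Nfe2l3 and Faf2). The balance of all tested genes turned the same way, from 15.2% higher and 7.56% lower to 11.3% higher and 18.4% lower. Nfe2l2, a transcription factor of antioxidant genes, rose by 0.64, and the p97 cofactors Faf1 and Nploc4 rose by 0.43 and 0.45. The call of Nfe2l2 was lost without WT replicate 2 (limma adjusted p = 0.0555), as were those of Faf1 and Nploc4 (0.0847 and 0.105), which were also lost when WT replicate 1 (0.126 and 0.169) or KLHL3-KI replicate 2 (0.0956 and 0.153) was left out and with equal total reads. Nfe2l1, which drives proteasome genes when proteasome activity is low, was at 123 ± 1.58 in KLHL3-KI and 147 ± 0.0303 in WT (n = 2 each) and did not pass (log2 fold change -0.25, limma adjusted p = 0.0661). Of 7 ubiquitin and E1 genes, 6 were not called, Uba7 and Ubb among them (limma adjusted p = 0.163 and 0.271), and with equal total reads 0 were called higher and 1, Uba6, lower.

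The class I peptide pathway, which takes the products of the immunoproteasome, had 5 of 12 genes called lower and 1 higher. With equal total reads 8 were called lower and 1 higher. Of all tested genes, 7.56% were called lower and 15.2% higher, and 18.4% lower and 11.3% higher with equal total reads. Nlrc5, the transactivator of class I genes, was at 116 ± 0.497 in KLHL3-KI and 173 ± 3.92 in WT (n = 2 each), a log2 fold change of -0.57 (SE 0.09 and adjusted p = 0.00148 by limma). The peptide transporter genes Tap1 and Tap2 had log2 fold changes of -0.53 and -0.50, and the endoplasmic reticulum chaperone Canx was the gene called higher (0.53). Nlrc5 and Tap1 passed under all 17 alternatives, and the calls of Tap2 and Canx were lost without WT replicate 2 (limma adjusted p = 0.106 and 0.0687). Of 15 tested interferon response genes, 2 were called lower and 1 higher, and 5 lower and 1 higher with equal total reads. Stat2 and Irf8 had log2 fold changes of -0.48 and -0.45, and Isg15, a ubiquitin-like protein, had one of 1.61. Isg15 passed under all 17 alternatives, while the call of Stat2 was lost without WT replicate 1 and that of Irf8 without WT replicate 2 (limma adjusted p = 0.0911 and 0.0896). Ifng was under the minimum level, at 0.110 and 0.487 in KLHL3-KI and 0.671 and 0.830 in WT.

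In promoter windows from 250 bases before to 50 bases after the start, 42 of 50 members had a RefSeq entry, with 45 windows. The antioxidant response element core, TGACNNNGC, was in 6 of the 45 member windows (13.3%) and in 12.4% of all 32851 windows. The members with it were Psmb5, Psmb6, Psmc6, Psmd12, Psmd9 and Psme4. A CCAAT box was in 15 member windows (33.3%), against 37.4% of all windows. The interferon-stimulated response element core (a pair of GAAA runs parted by 2 bases) was in 5 member windows (11.1%, against 3.44% of all), Psme1 among them and none of the 3 immunoproteasome genes. In the 250 bases before the start alone it was in 3 member windows (6.67%, against 2.98% of all), those of Psmb3, Psmd4 and Psmd9 and not that of Psme1. An E2F site, TTTCCCGC or TTTGGCGC, was in 3 member windows, those of Psmb9, Psmc2 and Psmc4 (6.67%, against 1.56%). In the 250 bases alone the E2F site was in 2 of the 45, those of Psmb9 and Psmc4. These are letter matches on either strand and not binding sites.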

How the data were processed

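The deposited table holds normalized counts, a scaled signal per gene and library with no further unit. Per the submitters' processing notes, Trimmomatic 0.38, Bowtie2, RSEM 1.3.0 and edgeR were used with build GRCm39. The sources used here do not state their roles, the annotation or the strand setting. RNA was depleted of ribosomal RNA and made into directional libraries per the labels' protocols. All values (100%, within 0.001 of a whole read) were whole multiples of the smallest value of their library, and whole reads were recovered from these steps. RSEM assigns reads shared by near-identical genes by estimation, so, where it made the counts, such genes can trade reads.

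Symbols came from GENCODE M21 (GRCm38) for 23605 identifiers, and coordinates are those of RefSeq promoters on GRCm38.p6. Values were tested as log2(value + 1) with limma 3.58.1 in R 4.3.3 (variance trend, two-sided, mean value of at least 1, Benjamini-Hochberg adjusted over 16970 genes). Recovered reads were tested with edgeR 4.0.16 and DESeq2 1.42.0. Other alternatives were pseudocounts of 0.1 and 5, no filter or a mean of at least 5, median-ratio, equal-read and quantile scaling, removal of globin, immunoglobulin and mitochondrial genes, no variance trend, robust variance, a replicate block, and leaving out each library. The tests across genes were tried on simulated data first. Precision is limited by depth (8535483 to 10933023 reads) and n = 2.

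The members, role classes, pathway lists and marker lists were chosen with earlier results of these data known. Named genes were all members, with values per library for the catalytic subunits, Psme1, Psme2 and the largest and smallest changes of each class, and up to 4 genes with the lowest p from each pathway list; Psmd14, other members in brief, Nfe2l1 and Ifng were added after their values were seen, and the printed promoters were chosen likewise. Some genes of the pathway lists are not reported here. Counts of libraries of 1 group differed beyond sampling noise (chi-square per degree of freedom of 7.76 in KLHL3-KI and 4.38 in WT).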

Additional observations from a re-analysis of the deposited data

How the results depend on the processing

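With each library left out, the 3 partner differences ran from -1.03 to -0.78 for Psmb8 minus Psmb5, from -0.72 to -0.54 for Psmb9 minus Psmb6 and from -1.12 to -0.75 for Psmb10 minus Psmb7. Their sign could not change, since in each pair both KLHL3-KI libraries were below both WT libraries. With each library left out, all tested genes called higher ran from 1386 to 2903 and lower from 267 to 1627, members called higher from 5 to 27 and lower from 1 to 4, core genes called higher from 0 to 7, 19S genes called higher from 1 to 15 and immunoproteasome genes called lower from 0 to 3. With equal total reads, 3130 genes were called lower, 13 members higher and 5 lower, with 2 core and 7 19S genes higher. With globin, immunoglobulin and mitochondrial genes removed, 2970 genes were called lower, 18 members higher, 5 members lower and 4 core genes higher. After quantile normalization, 2369 genes were called lower, 15 members higher, 5 members lower, with 2 core and 7 19S genes higher. Without a variance trend, 659 genes were called lower, 12 members higher and 1 lower, with 2 core, 4 19S and 0 immunoproteasome genes (2 at an unadjusted p under 0.05). DESeq2 called 793 genes lower. The cause was not tested.

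The replicate numbers of the titles are not stated to pair libraries. The correlation of deviations of same-numbered libraries was -0.0325 over genes. This is a single value, since with 2 libraries a group the deviations of replicate 2 mirror those of replicate 1. With a replicate block, 2715 genes were called higher and 1415 lower, 30 members higher and 3 lower. Each replicate number holds 1 library of each group, so a block cannot change the partner differences, which are -0.90, -0.63 and -0.93 either way. Among the single member results, the sign turned in 2: Psmg4 ran from -0.15 to 0.11 and Psme2 from -0.25 to 0.10 with each library left out, both positive without WT replicate 1. The median of the activators and the inhibitor, 0.11 as reported, was -0.056 with equal total reads, -0.027 with globin, immunoglobulin and mitochondrial genes removed and -0.021 after quantile normalization. Of the comparisons of a member with an alternative, 691 kept their side of the threshold, 121 lost a call and 16 gained one. The n of 2 libraries a group limits every call. Taken over genes, the spread between libraries of a group was larger than counting error, which does not hold for each single member.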
